A study of Mus musculus with 14 samples.

Results

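Ezh2 peaks that lay outside the domains of its own histone mark were examined in 81K1 mouse embryonic stem cells (mESC). The Ezh2 peak lists of control and Smarcb1 knockdown (kd) cells were merged on chromosomes 1 to 19 and X, which gave 8766 Ezh2 sites. A site was kept when it overlapped no H3K27me3 island of either condition by even 1 bp. This left 2323 sites outside H3K27me3 islands, 26.5% of all merged sites (95% Wilson interval 25.6 to 27.4%), beside 6443 sites inside them. The sites were thus chosen by the Ezh2 and H3K27me3 calls themselves, and values taken from these calls are given as a description.

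81K1 is a single clone of the OG2 mESC line in which an shRNA against Smarcb1, inserted at Rosa26, is switched on by doxycycline. Control cells carried the same insertion and were left untreated, and kd cells received 1 µg/ml doxycycline for 72 h. Chromatin was immunoprecipitated with 5 antibodies (Ezh2, H3K27me3, Smarca4, H3K4me3 and H3K27ac), with 1 library per antibody and condition and 4 background libraries among the 14 samples. By the methods, Smarca4 and H3K27me3 were processed by Active Motif and the other antibodies in the authors' laboratory, so that antibody and laboratory cannot be told apart when these lists are overlapped.

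Ezh2 is the methyltransferase of Polycomb Repressive Complex 2 (PRC2) and places the mark H3K27me3 on histone H3. In mESC, PRC2 is best known at CpG islands of developmental genes, where Ezh2 peaks sit within broad H3K27me3 islands, often together with H3K4me3 (bivalent promoters). Smarca4 is the ATPase of the esBAF remodelling complex that also holds Smarcb1, H3K4me3 marks promoters, and H3K27ac marks active promoters and enhancers.

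No library was replicated, so no test between conditions was made. Intervals on shares cover the counting of sites only, and the depth of the libraries is unknown because the lists hold no read counts. The Ezh2 list held 6706 peaks in control, covering 3.65 Mb, and 5364 peaks in kd, covering 5.36 Mb. The H3K27me3 islands of both conditions together covered 233.91 Mb, 8.88% of the genome. The cell type was checked by histone marks near TSSs, since no transcripts were measured here. Of 8 stem cell genes, 7 had an H3K4me3 island within 1 kb of the TSS in control and 7 in kd, Esrrb being the exception, and 6 in control and 7 in kd had H3K27ac. H3K27me3 was also found at 2 of them in control (Klf4 and Esrrb) and at 1 in kd (Esrrb). Of 5 fibroblast genes, none had H3K27ac in either condition, 1 in control and 3 in kd had H3K4me3, and 4 in control and 5 in kd had H3K27me3. The lists do not measure the level of Smarcb1.

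The DNA under the sites differed with the list a site came from, and sequences of sites seen in kd are therefore shown first. The central 200 bases of a kd-only and of a shared site, each among the 2 of highest score in its class that overlapped no exon, are read 5′ to 3′ on the plus strand of GRCm38 (RefSeq sequence). Capitals mark a run of at least 24 bases of the unit TTAGGG, CA or CG, counted on both strands. Besides such runs, purine tracts were counted, defined as stretches of windows of 100 bases with at least 95% purines (A or G) on 1 strand. The score is the whole number that MACS2 gave each peak in its own library.
Kd only, score 165, near Gm23514 (chr11:25505906-25506105): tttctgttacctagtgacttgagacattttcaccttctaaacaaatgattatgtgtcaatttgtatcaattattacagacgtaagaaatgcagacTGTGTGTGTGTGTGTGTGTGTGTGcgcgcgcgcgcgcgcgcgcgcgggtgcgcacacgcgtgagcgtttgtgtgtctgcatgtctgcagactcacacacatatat
Both lists, score 351 in kd, intron of Ttc21b (chr2:66189259-66189458): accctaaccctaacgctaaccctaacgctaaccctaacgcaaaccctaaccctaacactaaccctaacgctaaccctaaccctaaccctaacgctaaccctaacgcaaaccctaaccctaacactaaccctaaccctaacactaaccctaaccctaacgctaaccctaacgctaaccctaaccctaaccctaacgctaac

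The kd-only sequence held a CA run of 24 bases, read as TG on this strand, next to a stretch of alternating C and G. The shared one held TTAGGG, the unit of the vertebrate telomere, read on this strand as CCCTAA. Its array was interrupted, so that no 24-base run lay in the bases shown. The words of 24 bases shared by most sites are given next. AGGAGGAGGAGGAGGAGGAGGAGG or its reverse complement was found in 538 of the 2124 control-only sites (25.3%). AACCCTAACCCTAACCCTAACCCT was found in 25 of the 156 kd-only sites (16%), against 1 of the 6443 sites inside islands. Among words other than simple repeats, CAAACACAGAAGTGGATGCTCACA was shared by 15 kd-only sites (9.62%) and none of the inside sites. It occurs 36337 times in the genome and thus belongs to a repeated element, whose name the files do not give.

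Sites outside H3K27me3 islands came almost wholly from the control list. Of the 2323 sites, 2124 (91.4%, 90.2 to 92.5%) were called in control only, 156 (6.72%, 5.77 to 7.81%) in kd only and 43 (1.85%, 1.38 to 2.48%) in both lists. Over all merged sites these classes made up 39.2%, 30.2% and 30.6%. Inside islands the largest class was the shared one, with 2640 sites (41.0%), followed by 2495 kd-only (38.7%) and 1308 control-only sites (20.3%). Read the other way, 61.9% of all control-only Ezh2 sites lay outside H3K27me3 islands, against 5.88% of the kd-only and 1.60% of the shared sites. These classes follow from the lists that define the sites and from 1 library each.

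**Figure D1:**
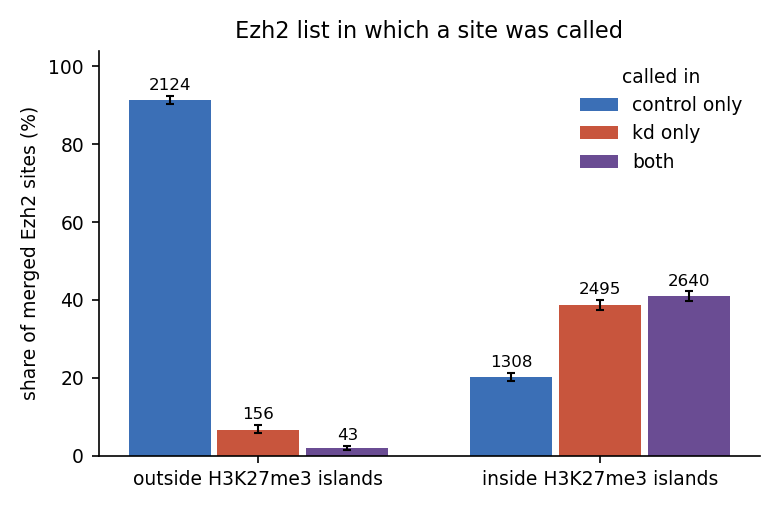
Share of merged Ezh2 sites (y axis, %) called in control only, kd only or both lists, for sites outside and inside H3K27me3 islands (x axis), with 95% Wilson intervals as bars and the number of sites above each column. Outside islands 2124 of 2323 sites were called in control only, whereas inside islands this class was the smallest with 1308 of 6443.

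The control-only sites stood alone. The median distance to the nearest kd Ezh2 peak was 256995 bp, and 1 of the 2124 sites had such a peak within 1 kb and 28 (1.32%) within 10 kb. For control-only sites inside islands the median was 97844 bp and 239 of 1308 (18.3%) had a kd peak within 10 kb. Neighbouring outside sites lay a median of 648404 bp apart, and 44 of 2303 neighbouring pairs (1.91%) were closer than 10 kb. Most sites were also far from the mark. The median distance to the nearest H3K27me3 island was 39882 bp for control-only, 23195 bp for kd-only and 31153 bp for shared sites, while 87 control-only (4.10%) and 24 kd-only sites (15.4%) had an island within 1 kb. At the limit of the rule, the nearest excluded and included sites differed by a few bases. Control-only sites on chromosome 12 (85675232 to 85675595, score 100), chromosome 19 (42417010 to 42417283, score 84) and chromosome 5 (149342610 to 149342898, score 112) lay 5, 9 and 9 bp from an island. On chromosome 17 (7121213 to 7121603), chromosome 10 (93631160 to 93631605) and chromosome 11 (106002334 to 106002618) control-only sites counted as inside by 3, 5 and 18 bp.

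Outside sites were narrow. Their median width was 267 bp, with 265 bp in the control-only, 270.5 bp in the kd-only and 326 bp in the shared class. Inside islands the median was 640 bp over all sites, 310 bp for control-only, 488 bp for kd-only and 1224 bp for shared sites. The median score in the control list was 66 for control-only sites outside islands (range 13 to 464) and 75 for those inside (13 to 459). In the kd list it was 52 for kd-only sites outside (14 to 193) and 69 for those inside (14 to 613). The 43 shared outside sites had a median score of 83 in control and 101 in kd, and the kd score was the higher one at 31 of them. Scores were not scaled between the libraries. The site near Gm33172 scored 169 in control and 333 in kd, whereas a site near Gm11487 (chromosome 4, 73262985 to 73263447) scored 311 and 24.

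The outside sites lay mainly in repeat-masked DNA, that is, in bases written in lower case in the reference. At least 50% of the bases were masked at 1956 of the 2323 sites (84.2%, 82.7 to 85.6%), against 35.9% of all merged sites and 18.5% of the sites inside islands, while 34.3% of the bases of the genome were masked. The share was 87.4% for control-only, 48.7% for kd-only and 53.5% for shared outside sites. In this the control-only sites inside islands were like those outside, with 85.7%, whereas kd-only and shared sites inside islands stood at 1.68% and 1.17%. The authors had kept uniquely aligned reads only, and how well short reads align at these sites was not tested. Sites masked over their whole length made up 12.8% of the control-only but 37.2% of the kd-only outside sites.

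A purine tract was the leading feature of the control-only sites. It was found in 1665 of 2124 (78.4%, 76.6 to 80.1%), in 1 of the 156 kd-only and in 1 of the 43 shared outside sites, against 31.4% of all merged sites. Control-only sites inside islands again had a like share, 986 of 1308 (75.4%, 73.0 to 77.6%), while it was 0.24% in kd-only and 3.6% in shared sites inside islands. Perfect runs of at least 24 bases of GGA were present in 593 control-only outside sites (27.9%), of GAA in 470 (22.1%) and of GGAGAA in 441 (20.8%). None of the 156 kd-only sites had any of these, which allows a share of up to 2.4% by the Wilson interval. In shorter runs of 12 bases, CCT was found in 82.3% of control-only and 1.92% of kd-only sites, whereas GA and GGAA runs were held by 2.68% and 5.65% of control-only sites. The control-only outside sites had a median GC content of 47% and a CpG ratio (observed over expected) of 0.0562. Control-only sites inside islands were close to this, with 50.2% and 0.0723, whereas shared sites inside islands had 64.2% and 0.743.

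**Figure D2:**
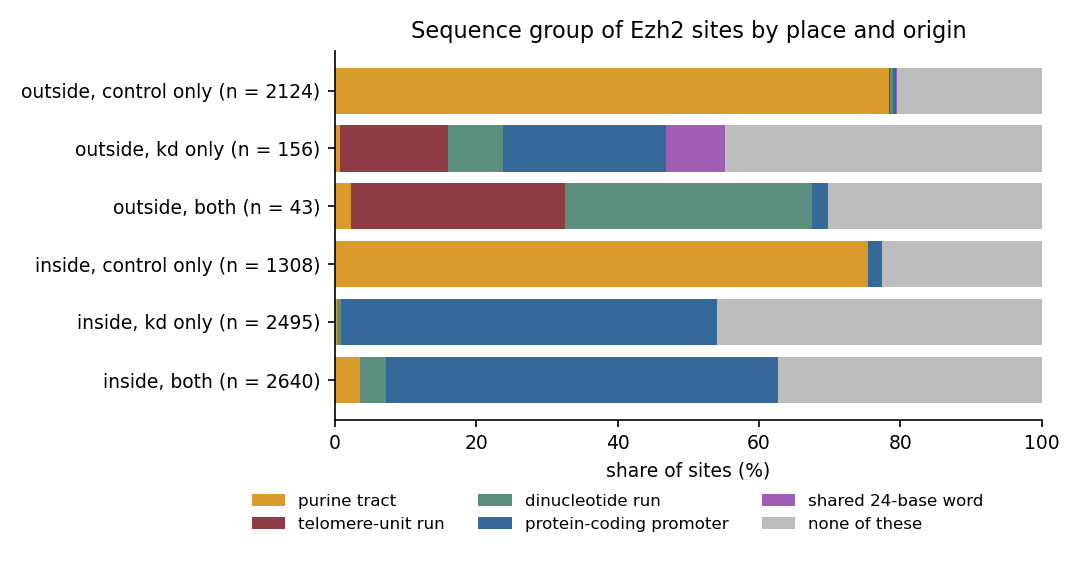
Share of Ezh2 sites (x axis, %) in each sequence group, for the 6 classes of place and origin (y axis). A site is put in the first group it meets, in the order of the legend, where telomere-unit means TTAGGG and dinucleotide means CA or CG. Purine tracts filled 78.4% of control-only outside and 75.4% of control-only inside sites, and 0.641% of the kd-only outside sites.

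The tracts were centred on the peaks. The tract overlapping a control-only outside site most was a median of 236 bases long (quartiles 166 and 344, longest 2158), and its centre lay a median of 34 bp from the centre of a peak whose median width was 275 bp. Of the control-only outside sites, 76.5% were within a tract at the very centre, 46% at 100 bp before and 46.4% at 100 bp after it, and 0.942% and 1.65% at 600 bp before and after it. For control-only sites inside islands the centre value was 69.6%. Shared sites inside islands had 0.417% at the centre and at most 0.833% at the distances of 100 to 600 bp that are multiples of 100. Split by score into 4 bands of 531 sites, the share with a tract was 87.2% in the lowest band (scores 13 to 50), 79.5% and 70.4% in the next ones and 76.5% in the highest (87 to 464).

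**Figure D3:**
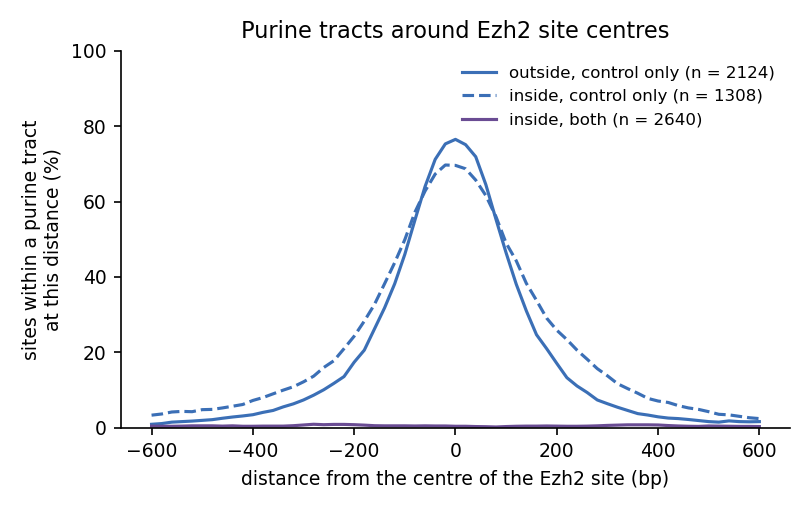
Share of sites (y axis, %) whose base at a given distance from the site centre (x axis, bp, 600 bp to each side in steps of 20 bp) lies in a purine tract. The share reached 76.5% at the centre of control-only sites outside islands and 69.6% at those inside, and stayed near 0 at sites inside islands called in both lists (0.417% at the centre).

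The reference was next scanned for purine tracts irrespective of any peak. Of 100074 tracts, 2874 (2.87%) overlapped an Ezh2 peak of the control and 119 (0.119%) one of the kd. The share in control rose with the length of the tract, from 1.27% (1.17 to 1.38%) at 100 to 149 bases to 5.31% at 250 to 299 bases, 13.1% at 400 to 599 bases and 25.9% (22.9 to 29.1%) from 600 bases up. In the kd list it was 2 of 757 tracts in this longest class. The share also differed with composition, although the tracts compared differed in length too. Tracts with a run of GGA, GAA or GGAGAA were in a control peak in 11.0% of cases (1612 of 14672, median length 202 bases), those without such a run in 1.48% (1262 of 85402, median length 151 bases). The GGAGAA runs were the most often called, 905 of 2598 (34.8%, 33.0 to 36.7%) in control and 7 (0.269%) in kd. GGA runs followed with 10.1% and GAA runs with 6.84% in control. Of the tracts in a control Ezh2 peak, 40.4% overlapped an H3K27me3 island of either condition, against 15.1% of all tracts.

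The lists of the other antibodies differed far less between conditions at these tracts. H3K27me3 islands overlapped 11.5% of the tracts in control and 10.5% in kd, Smarca4 peaks 0.475% and 0.465%, H3K4me3 islands 0.904% and 1.34%, and H3K27ac islands 3.96% and 5.34%. The background libraries have no list of their own, and their reads at these tracts were not analysed here. Most tracts, the longest class included, were in no Ezh2 peak. Whether the difference between the Ezh2 lists belongs to the condition or to the single library cannot be told apart.

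**Figure D4:**
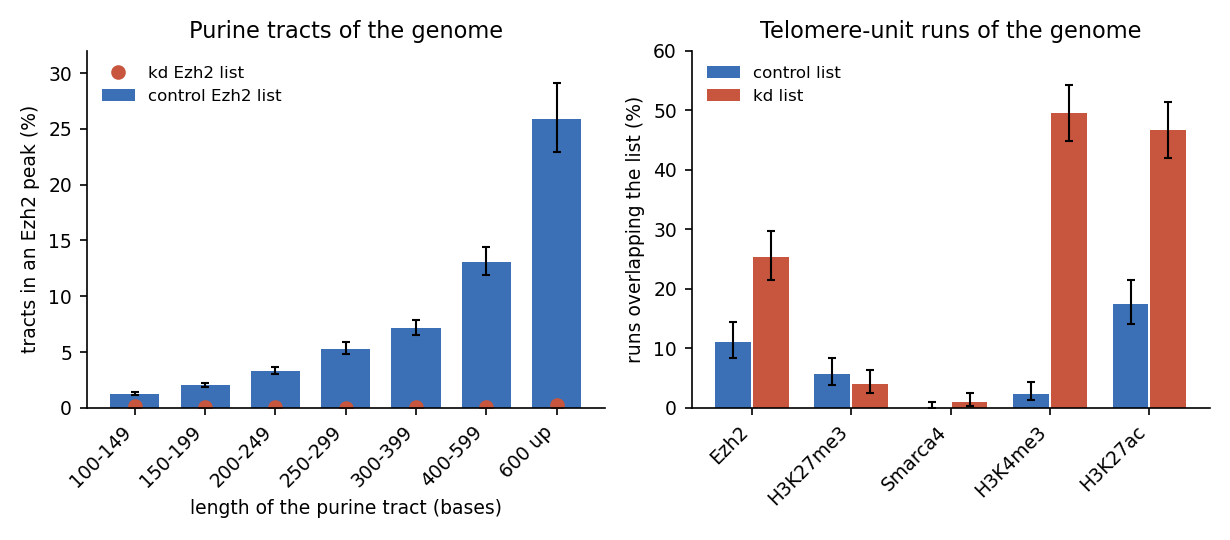
Left, share of the purine tracts of the genome in an Ezh2 peak (y axis, %) by tract length (x axis, bases), as columns with 95% Wilson intervals for control and points for kd, which rises in control from 1.27% to 25.9%. Right, share of the 418 runs of TTAGGG of the genome that overlap each list (y axis, %), which was 2.39% in control and 49.5% in kd for H3K4me3.

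Telomere units were mostly in sites seen in kd, where they marked a minority of the sites. A run of at least 24 bases of TTAGGG was found in 41 outside sites (1.76%, against 0.479% of all merged sites). Of these, 25 were kd only (16% of that class), 13 were in both lists (30.2%) and 3 were control only (0.141%), and inside islands there was 1 such site. The 41 sites lay on 17 chromosomes, 22 in intergenic DNA and 15 in introns, and their median distance from an assembled chromosome end was 22.6 Mb, against 20.3 Mb for the 418 such runs of the genome. The strongest kd-only one, near Gm14496 (score 181), had 366 bp of TTAGGG run. Of the 418 runs in the genome, 46 (11.0%, 8.35 to 14.4%) were in a control Ezh2 peak and 106 (25.4%, 21.4 to 29.7%) in a kd peak. H3K4me3 islands overlapped 10 of the runs in control (2.39%) and 207 in kd (49.5%), and H3K27ac islands 73 (17.5%) and 195 (46.7%). Smarca4 peaks overlapped 0 and 4 of them. Of the 24 longest runs, from 96 bases up, Ezh2 peaks overlapped 0 in control and 5 in kd, H3K4me3 islands 0 and 17, and H3K27ac islands 1 and 16. At the outside sites themselves, the H3K4me3 islands of kd over the 25 kd-only runs had a median width of 0.40 kb, compared with 3.4 kb for all H3K4me3 islands of kd. The H3K4me3 list of kd was longer than that of control (33128 and 25873 islands), which covered 5.05% and 3.81% of the genome.

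CA or CG runs were the other simple repeats of the sites seen in kd. In the grouping, which puts a site in the first group it meets, they took 15 of the 43 shared sites (34.9%) and 12 of the 156 kd-only sites (7.69%), against 9 control-only sites (0.424%). Over all outside sites the group made up 1.55%, no more than the 1.69% of sites inside islands. Inside islands it took 94 of the 2640 shared sites (3.56%). Of all merged sites, 1.68% held a CA run and 0.228% a CG run. CG runs are rare, with 120 in the genome, of which 16 (13.3%) lay in an outside site, 18 in a control and 15 in a kd peak. CA runs are common, with 237872 in the genome, of which 33 (0.0139%) lay in an outside site, 80 in a control and 231 in a kd peak. The strongest kd-only one, near Gm23514 on chromosome 11 (25505839 to 25506172), scored 165 in kd and overlapped no region of the other 3 antibodies.

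Most outside sites carried none of the other marks. No Smarca4 peak, H3K4me3 island or H3K27ac island of either condition overlapped 1905 of them (82.0%, 80.4 to 83.5%), against 36.6% of all merged sites. Smarca4 was found at 77 (3.31%), against 57.2% of all merged sites, and H3K4me3 at 213 (9.17%), against 53.6%. H3K27ac was found at 376 (16.2%), against 12.5%. Sites inside islands stood at 76.6%, 69.6% and 11.2%. Of the control-only sites inside islands, however, 84.2% carried none of these marks, with Smarca4 at 6.8%, H3K4me3 at 7.42% and H3K27ac at 9.4%. For control-only sites outside islands these values were 87.9%, 1.13%, 2.97% and 10.7%.

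These shares differed between the classes of origin. Of the control-only sites, 0.706% overlapped Smarca4 in control and 0.800% in kd, 2.17% and 1.84% H3K4me3, and 7.16% and 7.34% H3K27ac. Of the kd-only sites, 27.6% and 32.1% overlapped Smarca4, 48.1% (40.4 to 55.9%) and 82.1% (75.3 to 87.3%) H3K4me3, and 54.5% (46.7 to 62.1%) and 80.8% (73.9 to 86.2%) H3K27ac. Of the 43 shared sites, 4.65% overlapped H3K4me3 in control and 51.2% in kd, whereas H3K27ac stood at 39.5% and 37.2%. The kd-only sites thus overlapped H3K4me3 and H3K27ac more often in kd than in control, while few control-only sites overlapped either mark in either condition. The direction was the same in kd-only sites inside islands, with 67.3% in control and 82.3% in kd for H3K4me3 and 2.65% and 13.1% for H3K27ac. Over all merged sites it was 44.2% and 52.2% for H3K4me3 and 4.54% and 11.1% for H3K27ac. The H3K27ac list was also longer in kd (50700 islands) than in control (38737), and the part of list length in these shares was not tested. Ezh2, H3K4me3 and H3K27ac were processed in the same laboratory and Smarca4 in another.

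**Figure D5:**
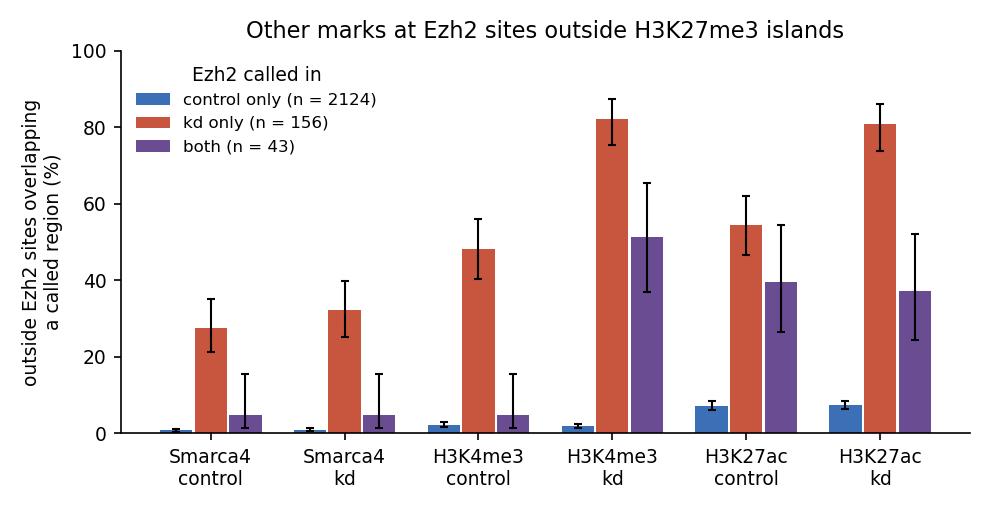
Share of Ezh2 sites outside H3K27me3 islands (y axis, %) that overlap a Smarca4 peak or an H3K4me3 or H3K27ac island of either condition (x axis), by the Ezh2 list of origin, with 95% Wilson intervals. H3K4me3 of kd was called at 82.1% of the kd-only, 51.2% of the shared and 1.84% of the control-only sites.

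Outside sites were mostly intergenic or intronic. Of the 2323, 1186 (51.1%) were intergenic, 931 (40.1%) intronic, 56 (2.41%) touched an exon away from a TSS and 150 (6.46%, 5.53 to 7.53%) lay within 1 kb of a TSS, against 40.3% of all merged sites and 52.6% of those inside islands. Gene regions, taken from 1 kb before the TSS up to the TES, held 1133 sites (48.8%), against 72.6% of all merged sites. Near a TSS were 4.94% of the control-only, 26.9% of the kd-only and 6.98% of the shared sites. Control-only sites inside islands were placed much like those outside, with 8.56% near a TSS, 51.3% intergenic and 35.9% intronic. Of the control-only outside sites, 51.9% were intergenic and 41.1% intronic. Gene regions held 48.5% of the control-only sites inside islands and 47.9% of those outside. Within genes on 1 strand, the purines of the control-only tracts were on the sense strand in 35.9% of cases (32.5 to 39.5%). Over all purine tracts in genes this was higher, at 40.3% (39.8 to 40.8%), with an interval apart from the former. Over those of at least 200 bases in no control Ezh2 peak it was 39.0% (38.1 to 39.9%), with an interval that overlaps that of the control-only sites.

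Within 1 kb of the TSS of a protein-coding gene lay 36 of the 156 kd-only sites (23.1%, 17.2 to 30.3%), 27 of the 2124 control-only sites (1.27%) and 2 of the 43 shared sites. The kd-only share was below that of kd-only sites inside islands (53.3%, 51.4 to 55.3%) and of all merged sites (34.2%). The 36 kd-only promoter sites had the composition of CpG islands, with a median GC content of 79.0% and a CpG ratio of 0.94, and a median of 5.71% masked bases. All 36 had H3K4me3 in kd and 35 had it in control. H3K27ac was called at 17 in control and 32 in kd, and Smarca4 at 27 and 31. They lay beside the H3K27me3 islands, with a median distance of 611 bp, 21 within 1 kb and 27 within 5 kb, unlike the other kd-only groups, of which the telomere-unit sites had a median of 56174 bp and none within 5 kb. With islands widened by 5 kb, these 27 would count as inside.

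The strongest of them was at Epcam, which encodes an epithelial cell adhesion molecule (chromosome 17, 87636557 to 87637274, 718 bp). It scored 193 in kd, the highest of all kd-only outside sites, had no control peak, and overlapped Smarca4, H3K4me3 and H3K27ac in both conditions. The nearest H3K27me3 island was 65156 bp away. Next came Gm6526 (score 105, repeat-masked over its whole length, without Smarca4) and Nedd4l, a ubiquitin ligase gene (score 105, 120 bp from an island). Tcf7l2, a transcription factor of Wnt signalling, scored 95 at 503 bp from an island, and Pbx3, a homeodomain factor gene, 86 at 255 bp. The GTPase gene Rhoq scored 86 at 827 bp, and Ralgps2 69 at 344 bp. Among these sites, those at Epcam, Tcf7l2 and Ralgps2 had H3K27ac in both conditions, and that at Nedd4l in neither.

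The strongest promoter sites of the other classes were mostly of another kind. Of the 8, 5 held a purine tract, at Prpsap1 (score 132 in control), Olfr776 (131), Coil (131), Cfap77 (116) and Hemgn (107). Their masked share was lowest at Prpsap1 (71.7%), and the site at Cfap77 was masked throughout. The site at Ggn (score 128) had 73.6% GC, H3K4me3 and Smarca4 in both conditions and lay 553 bp from an island. Abi1 (score 110) had H3K4me3 and H3K27ac in both conditions. At 4930503E14Rik, the 1 shared site among them, the score was 60 in control and 105 in kd, over a CA or CG run.

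Apart from these groups, 70 kd-only sites remained, of which 41 were repeat-masked over their whole length. Of these 41, 36 were intergenic, 40 had H3K4me3 in kd and 20 in control, and 41 had H3K27ac in kd and 39 in control. The H3K4me3 and H3K27ac islands of kd around them had a median width of 6.40 kb each, and 26 of 40 and 29 of 41 were between 5 and 8.5 kb wide. The sites with the shared 24-base word also had both marks in kd, with H3K4me3 at 4 of 15 in control and 14 in kd, and H3K27ac at 13 and 15. Their kd islands were narrower, with medians of 2.6 kb for H3K4me3 and 3.0 kb for H3K27ac. Of these islands, 3 of 14 and 3 of 15 were between 5 and 8.5 kb wide. Fgf14 and Cntn5, both expressed in neurons, held such wholly masked sites in an intron, with scores of 151 (chromosome 14, 124496431 to 124496769) and 136 (chromosome 9, 10704147 to 10704405). A further 25 of the 70 were under 50% masked and GC-rich (median 70.2%), with Smarca4 at 14 in control and 15 in kd.

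The 8 highest-scoring control-only sites all held a purine tract. The first (score 464) lay 6886 bp from the TSS of Gm48563, and it was followed by Sarnp (260), Gm33035 (248), Gm24694 (238), Gm49570 (220), Sptb (216), Gm26241 (215) and Gm21811 (205). Only Sarnp, whose product binds RNA, held its site within the gene region. None of the 8 had a Smarca4 peak, and 3 of them overlapped an H3K27ac island in 1 of the conditions. Of the 8 strongest shared sites, 5 held TTAGGG runs, those at Ttc21b (227 in control, 351 in kd), near Gm33172, at Xkrx (54 and 261), near Gm25127 (89 and 260) and at Ppp1r9a (166 and 144), and all 5 had H3K4me3 in kd and none in control. The sites near Grb14 (100 and 186) and 4930595O18Rik (168 and 105) held CA or CG runs, and the one near Gm11487 a purine tract.

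An outside site lay in the gene region of 1112 of 53843 genes (2.07%) and of 811 of 21755 protein-coding genes (3.73%). These were long genes, with a median of 124.9 kb against 17.4 kb for all protein-coding genes. Of 192 genes of homeobox and other developmental families, the usual PRC2 targets, 4 (2.08%) had an outside site. This share was close to that of all genes (2.07%) and below that of protein-coding genes (3.73%). The median length in this list was 7.04 kb, against 3.52 kb for all genes and 17.4 kb for protein-coding genes. The 4 genes were Sox5, Foxk2 and Foxn3 with an intronic purine tract and Foxp4 with a kd-only promoter site. A site inside an island was found in 161 of the 192 (83.9%), against 8.77% of all genes and 16.2% of protein-coding genes. No site lay in the 12 PRC2 subunit genes, 20 pluripotency genes, 19 germline genes or 80 ribosomal protein genes. Among 20 genes of the Polycomb Repressive Complex 1 there were Phc2 with a kd-only site of score 21 and L3mbtl2 with a control-only site of score 52, and among 22 BAF genes there was Dpf3 (score 100, control only). Zfp genes, which encode zinc finger proteins, had one in 18 of 394 cases (4.57%), olfactory and vomeronasal receptor genes in 9 of 1421 (0.633%) and clustered histone genes in 1 of 67. The genes with a site were again long ones, with a median of 53.2 kb among the Zfp genes against 17.4 kb for that whole list.

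At least 3 outside sites lay in the region of 21 genes. The long adhesion gene Cdh13 (1041.2 kb) held 5, all control only, and Zmat4 held 4 control-only and 1 kd-only site. Nrg1, a growth factor gene, Fgfr2, a receptor gene, and Arhgap10 held 4 control-only sites each. Def8, at 39.7 kb one of the shortest, held 3 kd-only sites. The model Gm20388, which spans 4434.9 kb and contains Def8, held 10, the 3 of Def8 among them. Of the genes named here, all but Fgfr2 (chromosome 7, 2960.9 kb) lie on chromosome 8, whose density of outside sites is given next.

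Chromosome 8 held more outside sites than its length would give. It had 229 sites (9.86%, 8.71 to 11.1%) on 4.91% of the genome, or 1.77 per Mb, whereas the other chromosomes ranged from 0.292 (X) to 1.14 (chromosome 10) per Mb. Its purine tracts were little denser, 41.3 per Mb against 29.0 to 41.1 on the others. Control-only sites inside islands had a like share there (10.2%), and shared sites inside islands had 5.38%. The chromosome held 8.53% of the control and 6% of the kd Ezh2 peaks, 4.68% and 7.38% of the H3K27me3 islands, and 6.57% and 6.09% of the Smarca4 peaks. Of the 5 windows of 1 Mb with most outside sites, 3 were on chromosome 8 (from 23000001, 26000001 and 45000001, with 7, 7 and 6 sites), and 7 was the most in any window. The X chromosome held 2.15% of the outside sites on 6.49% of the genome. Its share was about as low in the whole Ezh2 lists (2.25% in control and 2.46% in kd) and in shared sites inside islands (2.46%). In control and kd it was 1.98% and 2.98% for Smarca4 and 3.19% and 4.19% for H3K27me3. It was higher for H3K4me3 (6.3% and 6.56%) and H3K27ac (8.12% and 6.94%).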

How the data were processed

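The 10 peak lists from 81K1 mESC were used, with 1 library per antibody and condition, grouped by the sample labels (ctrl, kd). Of the 14 samples, the 4 background libraries entered through the authors' calls alone. According to the methods and the submitters' processing notes, reads were trimmed with Trim Galore, aligned to mm10 with Bowtie2 and filtered with SAMtools 1.9 to unique alignments, and each library was called against its input. The titles of the background samples also give input, whereas their antibody label and the names of the Ezh2 and Smarca4 peaks give IgG, so that the background is not certain. The score deposited with each Ezh2 and Smarca4 peak is the MACS2 score given by the authors, with a lowest value of 13 or 14. The p-value deposited with each H3K27me3, H3K27ac and H3K4me3 island is that of SICER (windows of 200 bp), and the authors had removed islands above a limit. Neither is scaled between libraries, and depth per sample is unknown here.

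Ezh2 peaks were merged as bedtools merge does, on chromosomes 1 to 19 and X, and 1 bp of overlap counted. The end given for an island was counted as part of it. The score of a merged site is its highest peak score in a list. Genes are those of GENCODE M21 on GRCm38 (the methods name another release). Bases in lower case in the RefSeq sequence of GRCm38.p6 were taken as repeat-masked. Values were computed in Python 3.11.15 with pandas 2.3.3 and scipy 1.17.1. Overlaps, distances and merging were checked against bedtools 2.31.1, and runs and tracts on planted sequences. Shares have 95% Wilson intervals, which cover counting error only, and no p-value was computed.

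The sites, gene lists and rules were chosen with earlier results of these data known, and the purine tracts, 24-base runs and sequence groups after the sequences of the sites were seen. Sequences on chromosome 18 or overlapping an exon were not shown, and some sequences and genes that the rule would name are not reported here. Named sites are the 8 of highest score in each class of origin, the 8 kd-only and the 8 other sites of highest score within 1 kb of a protein-coding TSS, genes with at least 3 sites or in a fixed list, and the 5 windows of 1 Mb with most sites. The alternatives were a score of at least 50, -log10 p of at least 20 for H3K27me3, islands widened by 5 kb, H3K27me3 of the same condition, merging over 500 bp, single peaks, lists of equal length, at least 50% overlap, at least 80% masked bases, protein-coding genes, 5 kb around the TSS, and omission of chromosome X. Omission of chromosome 8 and other definitions of purine tracts were added after the data were seen.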

Additional observations from a re-analysis of the deposited data

How the results depend on the processing

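With 1 library per antibody and condition, no replicate could be left out. No paired analysis was possible because no group held more than 1 library and no test was made. Of 131 recomputed values, 38, all shares or median widths, moved beyond their counting interval. The number of outside sites (2323) ran from 1726 to 2725 and has no such interval. The share of Ezh2 sites outside islands (26.5%) was 24.1% at a score of at least 50, 30.5% with H3K27me3 islands at -log10 p of at least 20, 23.1% with islands widened by 5 kb, 31.1% with the H3K27me3 list of the same condition, 29.0% with peaks merged up to 500 bp apart, 19.6% with single peaks counted and 23.7% with lists of equal length. The control-only share of outside sites (91.4%) was 92.8% at the higher score, 89.2% with the same condition, 89.8% for single peaks and 89.7% with equal lists. The kd-only share was 5.21%, 9.25% and 8.35% at the higher score, same condition and equal lists, and the shared part 3.63% for single peaks. At least 50% masked were 82.6% with the same condition and 82.5% with equal lists, and at least 80% masked were 43.4%. The median width was 272 bp at the higher score and with the same condition, 271 bp with stricter islands and 270.5 bp with equal lists. Smarca4 stood at 2.43% (higher score), 1.97% (widened islands), 6.20% (same condition) and 2.58% (50% overlap), H3K4me3 at 7.18%, 7.94% and 11.1% under the first 3 of these, and H3K27ac at 14.5% at the higher score. Sites within 1 kb of a TSS were 5.37% with widened islands, 8.95% with the same condition and 2.80% for protein-coding genes, and 18.7% lay within 5 kb. In protein-coding gene regions were 39.4%. The purine tract share of control-only sites (78.4%) was 84.7% at 90% purines, 51.2% with purines alone and 92.6% in windows of 50 bases. Causes were not tested. No share or width recomputed without chromosome 8 or X moved beyond its interval.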
